A study of Homo sapiens with 8 samples.

Results

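In MP38 UM cells, 5 genes of neuronal filaments rose with HDAC inhibition and 4 of them rose with BET inhibition. Of the other filament genes, SYNM fell with HDAC inhibition, less firmly with romidepsin than with quisinostat. NES was slightly lower with quisinostat and slightly higher with mivebresib, and whether either change passed the threshold depended on the fit. The data are 9 rows of a table of read counts per gene symbol, chosen as neurofilament and other intermediate filament genes: NEFL, NEFM, NEFH, INA, PRPH, NES, GFAP, SYNM and DES. The table holds 35238 symbols in all, and all 9 genes were among the 15085 that passed a filter on low counts. MP38 is a BAP1-mutant line grown from a uveal melanoma, a tumor of the pigment cells of the eye. Cells were treated for 24 h with romidepsin at 40 nM, quisinostat at 40 nM or mivebresib at 1200 nM, and control cells received only the solvent, DMSO at 0.1%, which the drug-treated cells also received at the same final concentration. The 4 groups hold 2 bulk mRNA libraries each. These came from duplicate culture wells of the 1 line, and p-values measure only the spread between such wells.

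Romidepsin, a cyclic depsipeptide, and quisinostat, a hydroxamate, both block histone deacetylases, enzymes that remove acetyl groups from histones. Mivebresib blocks the bromodomains of BET proteins, which bind acetylated histones and recruit the transcription machinery. Intermediate filaments are rope-like polymers of coiled-coil proteins that give a cell mechanical strength, and each cell type builds them from its own set of subunits. In mature neurons they are made of the light, medium and heavy neurofilament chains (NEFL, NEFM and NEFH) with alpha-internexin (INA) or peripherin (PRPH). These neurofilaments fill the axon and set its caliber. Nestin (NES) is the filament protein of neural and muscle progenitors and synemin (SYNM) a large partner that joins vimentin or desmin filaments. Glial fibrillary acidic protein (GFAP) marks astrocytes and desmin (DES) marks muscle. Melanocytes and neurons of the peripheral nervous system both arise from the neural crest.

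The promoters of INA and PRPH are shown because these neuronal filament genes were higher with all 3 drugs and differ in the motifs of their promoters. The windows are RefSeq sequence on GRCh38.p14, each of 300 bases, from 250 bases before the transcription start to 50 after it. INA is at chr10:103276888-103277187 and PRPH at chr12:49294897-49295196, both on the plus strand and printed 5′ to 3′. Capitals mark GC boxes (GGGCGG on either strand, the motif of SP1-type factors) and the TATA box (TATAAA on either strand).
INA: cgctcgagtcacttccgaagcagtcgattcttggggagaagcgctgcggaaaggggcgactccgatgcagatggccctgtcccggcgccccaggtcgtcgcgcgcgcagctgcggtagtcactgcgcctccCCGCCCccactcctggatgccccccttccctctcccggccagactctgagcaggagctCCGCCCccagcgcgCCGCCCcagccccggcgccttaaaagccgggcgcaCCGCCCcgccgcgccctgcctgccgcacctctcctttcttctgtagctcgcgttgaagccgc
PRPH: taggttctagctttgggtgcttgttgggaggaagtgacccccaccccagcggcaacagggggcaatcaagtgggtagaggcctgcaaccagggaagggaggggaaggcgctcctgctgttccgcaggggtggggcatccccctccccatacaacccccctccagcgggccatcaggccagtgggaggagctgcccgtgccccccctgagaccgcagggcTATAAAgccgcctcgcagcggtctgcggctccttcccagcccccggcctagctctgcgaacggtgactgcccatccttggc
The INA window held 4 GC boxes, 35 CpG dinucleotides and 71.33% G and C, with no TATAAA. The PRPH window held no GC box, 13 CpG dinucleotides and 67% G and C, and its TATAAA began 31 bases before the start. Among 27305 promoters of the same length, 44.6% held a GC box and 12% a TATAAA, and the median held 14 CpG dinucleotides and 58.33% G and C. The NES and SYNM windows, not printed, held 4 GC boxes each, with 14 and 43 CpG dinucleotides. NEFL, NEFM, NEFH, GFAP and DES had no entry in the promoter table. A motif match describes these letters only.

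Depth hardly differed, at 28483235 to 29359024 counts per library, and the normalization factors (TMM, the trimmed mean of M-values) ran from 0.939 to 1.09. Levels are given as counts and as TMM-scaled CPM (counts scaled to a common library size). TYRP1, an enzyme of pigment synthesis, had 84041 to 112687 counts and MLANA, a melanocyte antigen, 2230 to 6194, while DCT, another enzyme of pigment synthesis, had 0 to 5. The 2 control libraries differed more than the pair of any drug, with a chi-square over genes of 58.1 per degree of freedom in the control and 9.52 to 9.79 in the drug groups. Control 2 was lower than control 1 by a median log2 difference of -0.22 in the genes with the shortest transcripts (up to 2.377 kb), and higher by 0.16 in those with the longest (from 5.447 kb). Bulk RNA cannot tell a change in the share of cells that express a gene from a change in RNA per cell.

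The neurofilament chains were nearly silent in control cells and rose most with quisinostat. NEFL, the light chain that every neurofilament needs, had 3 and 7 counts in the control libraries, 21 and 30 with romidepsin, 191 and 168 with quisinostat, and 7 and 4 with mivebresib. Both HDAC inhibitor groups lay above all control libraries, and the mivebresib libraries overlapped the control. NEFL rose by a log2 fold change (log2 FC) of 2.26 ± 0.44 (SE, n = 2 per group) with romidepsin (edgeR, adjusted p = 0.00613) and by 4.95 ± 0.35 with quisinostat (edgeR, adjusted p = 1.2e-05), a fold of 30.9. With mivebresib the log2 FC was 0.15, with a 95% interval from -1.21 to 1.5 (edgeR, adjusted p = 0.863), so a change either way was not detectable at this depth.

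NEFM, the medium chain, had 27 and 37 counts in the control, 117 and 101 with romidepsin, 282 and 274 with quisinostat, and 126 and 129 with mivebresib. No drug library overlapped the control, and the quisinostat libraries stood above all others. NEFM rose with all 3 drugs, by a log2 FC of 1.70 ± 0.19 with romidepsin (edgeR, adjusted p = 0.000528), 2.93 ± 0.18 with quisinostat (edgeR, adjusted p = 6.17e-06) and 2.00 ± 0.19 with mivebresib (edgeR, adjusted p = 7.47e-05). NEFH, the heavy chain whose long tail projects from the filament, had 5 and 11 counts in the control, 55 and 48 with romidepsin, 166 and 143 with quisinostat, and 63 and 70 with mivebresib. The order of the groups was that of NEFM, again with no overlap of any drug with the control. NEFH rose by 2.60 ± 0.33, 4.07 ± 0.29 and 3.05 ± 0.32 with romidepsin, quisinostat and mivebresib (edgeR, adjusted p = 0.000849, 1.37e-05 and 0.000121).

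The low counts of the control set the precision of these folds. Without control 2, the log2 FC of NEFL was 2.99 with romidepsin and 5.68 with quisinostat, and that of NEFH was 3.29, 4.75 and 3.73 with romidepsin, quisinostat and mivebresib. Their calls held in every fit that left out a library, where a group down to 1 library is assumed to vary like the others. On GRCh38 (GENCODE 29) NEFM lies at chr8:24913012-24919098 on the plus strand and NEFL at chr8:24950955-24957110 on the minus strand on the same chromosome, 31856 bases apart. NEFM rose with mivebresib while NEFL did not pass, and a test of the difference between the 2 genes was not made. NEFH is at chr22:29480230-29491390.

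**Figure D1:**
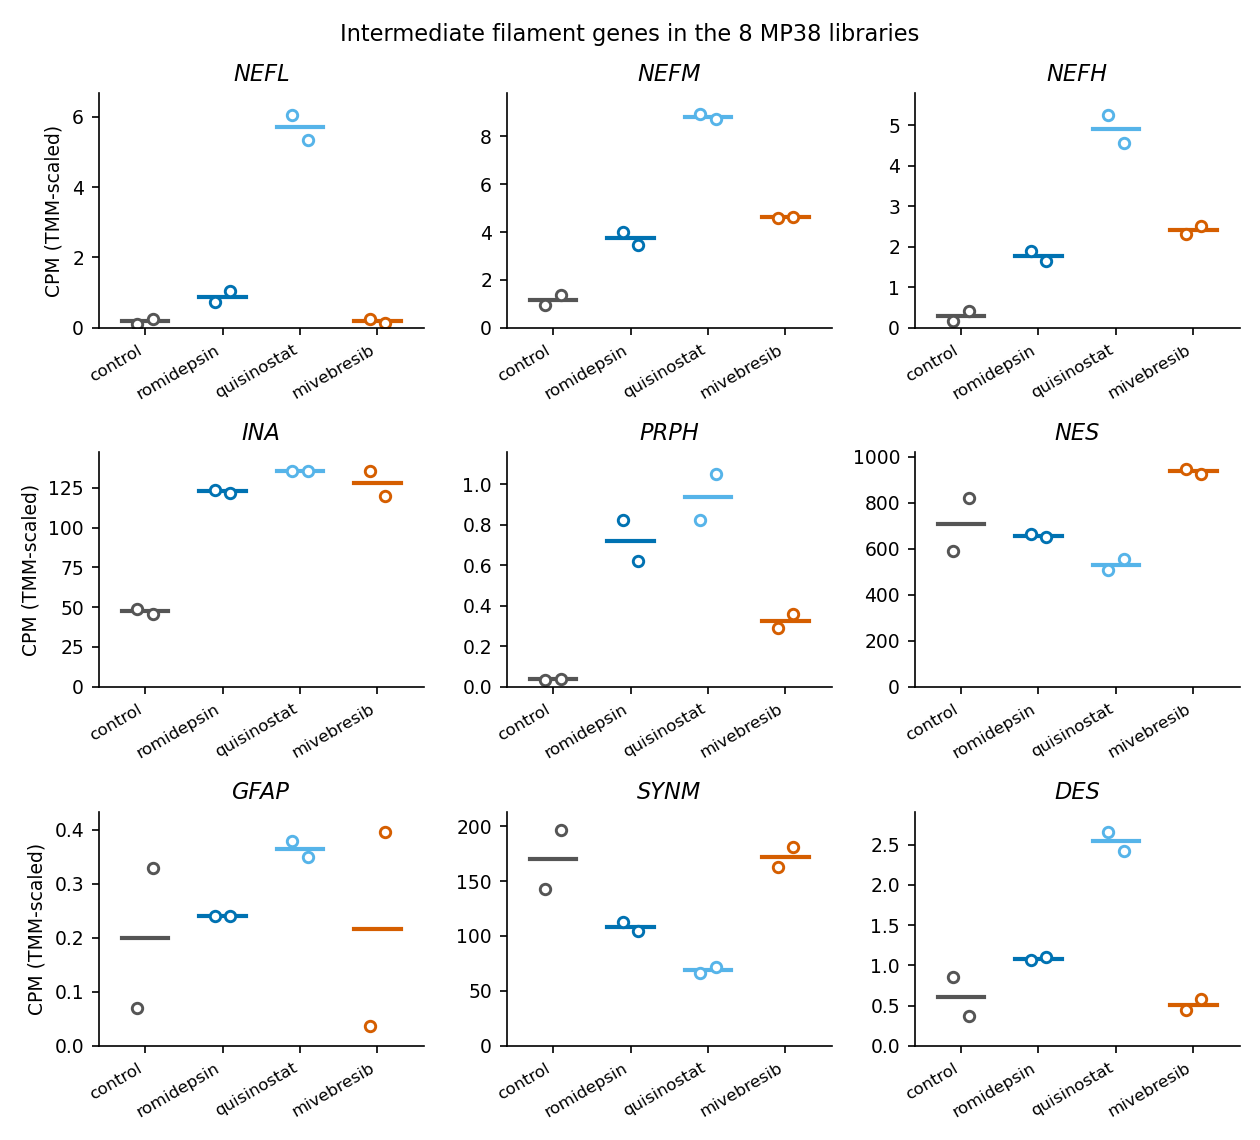
TMM-scaled CPM of each of the 9 genes (vertical axis, from 0, with its own range in each panel) in the 4 groups. Points are the 8 libraries and bars the mean of the 2 in a group. NEFL was near 0 in the control and mivebresib libraries, INA reached a like level with all 3 drugs, and SYNM was lowest with quisinostat.

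INA was the neuronal filament gene already transcribed in untreated MP38 cells. INA, which encodes alpha-internexin, a subunit that developing neurons make before the neurofilament chains, had 1382 and 1257 counts in the control, 3605 and 3528 with romidepsin, 4285 and 4254 with quisinostat, and 3708 and 3340 with mivebresib. Every drug library stood far above the control, with 47.4 ± 2.15 CPM (SD, n = 2) in the control and 123 ± 1.64, 136 ± 0.133 and 128 ± 11.0 CPM with romidepsin, quisinostat and mivebresib. INA rose by a log2 FC of 1.37 ± 0.087, 1.51 ± 0.087 and 1.43 ± 0.087 in that order (edgeR, adjusted p = 6.24e-05, 5.01e-06 and 9.3e-06). INA passed the test between no 2 drugs (edgeR, adjusted p = 0.223, 0.588 and 0.422). The 95% interval of the log2 difference was -0.05 to 0.34 between quisinostat and romidepsin, -0.13 to 0.25 between mivebresib and romidepsin, and -0.28 to 0.11 between mivebresib and quisinostat. With library size alone in place of TMM, INA was higher with quisinostat than with romidepsin (edgeR, adjusted p = 0.0326) and lower with mivebresib than with quisinostat (edgeR, adjusted p = 0.0241). INA lies at chr10:103277163-103290351 on the plus strand.

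PRPH, which encodes the filament protein of peripheral neurons, had 1 count in each control library, 24 and 18 with romidepsin, 26 and 33 with quisinostat, and 8 and 10 with mivebresib. All drug libraries lay above the control, and the romidepsin and quisinostat libraries overlapped in CPM. PRPH rose with all 3 drugs (edgeR, adjusted p = 0.00112, 0.000184 and 0.00552 for romidepsin, quisinostat and mivebresib). With only 2 control counts the size of the rise is poorly set: the ratio of summed counts was 20.1 with romidepsin, with a 95% counting interval of 5.22 to 171. That ratio was 26.0 (6.90 to 220) with quisinostat and 9.07 (2.17 to 80.6) with mivebresib. These intervals cover counting error only. PRPH lies at chr12:49293252-49298686, and NEFL, NEFM, NEFH, PRPH, SYNM and DES each overlap an annotated antisense gene. Whether the counting used strand is not given in the sources used here, so antisense reads could be part of their counts.

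NES and SYNM, the most abundant members in the control, did not follow the neuronal genes. NES had 16669 and 22495 counts in the control, 19269 and 18933 with romidepsin, 15978 and 17484 with quisinostat, and 25905 and 25702 with mivebresib. In CPM the quisinostat libraries were the lowest, at 506 and 557 against 591 and 822 in the control, the mivebresib libraries the highest, and the romidepsin libraries lay between the 2 controls. NES fell with quisinostat by a log2 FC of -0.41 ± 0.15, only just past the threshold (edgeR, adjusted p = 0.0474). With mivebresib its log2 FC was 0.41 ± 0.15 (edgeR, adjusted p = 0.055) and with romidepsin -0.10 ± 0.15 (edgeR, adjusted p = 0.627). The fall with quisinostat did not pass in 7 of 8 fits without a library, for example without control 2, where the log2 FC was -0.16 (edgeR, adjusted p = 0.169). Without control 2 the mivebresib value was 0.66 and passed (edgeR, adjusted p = 0.000164). The mivebresib value also passed in 7 of 9 fits that changed the tool, scaling, filter, samples or block, with adjusted p between 0.0135 and 0.0464 in those 7 (DESeq2, limma-voom or edgeR), and so its side of the threshold depends on the fit. Without control 1 the romidepsin value was -0.30 and passed (edgeR, adjusted p = 0.0366). NES lies at chr1:156668763-156677397 on the minus strand.

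SYNM had 4036 and 5386 counts in the control, 3275 and 3032 with romidepsin, 2105 and 2241 with quisinostat, and 4455 and 5036 with mivebresib. Both HDAC inhibitor groups lay below the control without overlap, and the mivebresib libraries lay within the control range. SYNM fell with quisinostat to a fold of 0.406 (log2 FC -1.30 ± 0.15, edgeR, adjusted p = 0.000146) and with romidepsin to 0.639 (log2 FC -0.65 ± 0.14, edgeR, adjusted p = 0.0107). With mivebresib its log2 FC was 0.02, with a 95% interval from -0.31 to 0.34. The romidepsin call was lost without romidepsin 1 (log2 FC -0.70, edgeR, adjusted p = 0.0543), without romidepsin 2 (-0.60, edgeR, adjusted p = 0.0773) and in the fit of only these 4 libraries (-0.62, edgeR, adjusted p = 0.0563). Without control 2 SYNM was higher with mivebresib (log2 FC 0.26, edgeR, adjusted p = 0.0346). Both genes have long transcripts, of 5.558 kb for NES and 7.394 kb for SYNM, and control 2 was above control 1 by 0.48 and 0.46 on the log2 scale. The part of the transcript-length difference between the controls in these values was not tested. SYNM lies at chr15:99098217-99135593.

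DES and GFAP, filament genes of muscle and astrocytes, were near the floor. DES had 24 and 10 counts in the control, 31 and 32 with romidepsin, 84 and 76 with quisinostat, and 12 and 16 with mivebresib. The quisinostat libraries stood well apart from the rest, and the romidepsin libraries lay just above both controls in CPM. DES rose with quisinostat by a log2 FC of 2.05 ± 0.33 (edgeR, adjusted p = 0.00109), or 2.78 without control 1. With romidepsin its log2 FC was 0.82 ± 0.37 (edgeR, adjusted p = 0.122), which passed without control 1 (1.58, edgeR, adjusted p = 0.0158), and with mivebresib -0.26 ± 0.42 (edgeR, adjusted p = 0.635). DES lies at chr2:219418377-219426739.

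The muscle markers MYF5 and MYF6, regulators of the muscle lineage, were at 0 in all 8 libraries and MYOG, another of them, at 0 or 1 count. MYOD1 had 7 and 6 counts with quisinostat and 0 in the control. The summed level of 11 muscle markers was 44.6 to 47.5 CPM in the control and 62.0 to 68.0 with romidepsin. It was 77.1 to 89.1 with quisinostat and 48.4 to 55.4 with mivebresib. Of the 4 tested, 3 were higher with quisinostat, beside 28.0% of all genes tested, and 2 with romidepsin, beside 15.1%. TNNT1, TTN and DMD made up most of each sum. With mivebresib 2 of the 4 tested were higher, beside 22.1% of all genes tested, and 2 lower, beside 24.0%, which the sum does not show. TNNT1 went from 847 and 639 counts in the control to 441 and 381 with mivebresib. TTN went from 311 and 391 to 673 and 938. ACTA1 had 16 and 23 counts in the control and 13 and 12 with quisinostat. The part of muscle-type cells in the DES result was not tested.

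GFAP had 2 and 9 counts in the control, 7 and 7 with romidepsin, 12 and 11 with quisinostat, and 1 and 11 with mivebresib. The control and mivebresib libraries spanned most of the range of the other groups. No comparison passed, and the 95% interval of the log2 FC was -1.77 to 2.32 with romidepsin, -1.01 to 2.74 with quisinostat and -1.98 to 2.24 with mivebresib, so a change was not detectable at this depth. GFAP (chr17:44903161-44916937) overlaps CCDC103 and FAM187A on the opposite strand, which had 5 to 64 and 18 to 110 counts. AQP4, a water channel that defines astrocytes, was at 0 in all 8 libraries. The 6 astrocyte markers summed to 188 to 223 CPM in the control, 217 to 242 with romidepsin, 234 to 241 with quisinostat and 244 to 249 with mivebresib, largely GJA1 and GLUL, which many cells express. Of the 5 tested, 4 were higher with quisinostat (median log2 FC 1.53), beside 28.0% of all genes tested, and 2 with romidepsin, beside 15.1%. With mivebresib 1 was higher, a share near the 22.1% of all genes tested, and 2 were lower, beside 24.0%. SLC1A2 and SLC1A3, the glutamate transporters of astrocytes, went from 4 and 9 and from 41 and 48 counts in the control to 59 and 61 and to 161 and 229 with quisinostat.

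**Figure D2:**
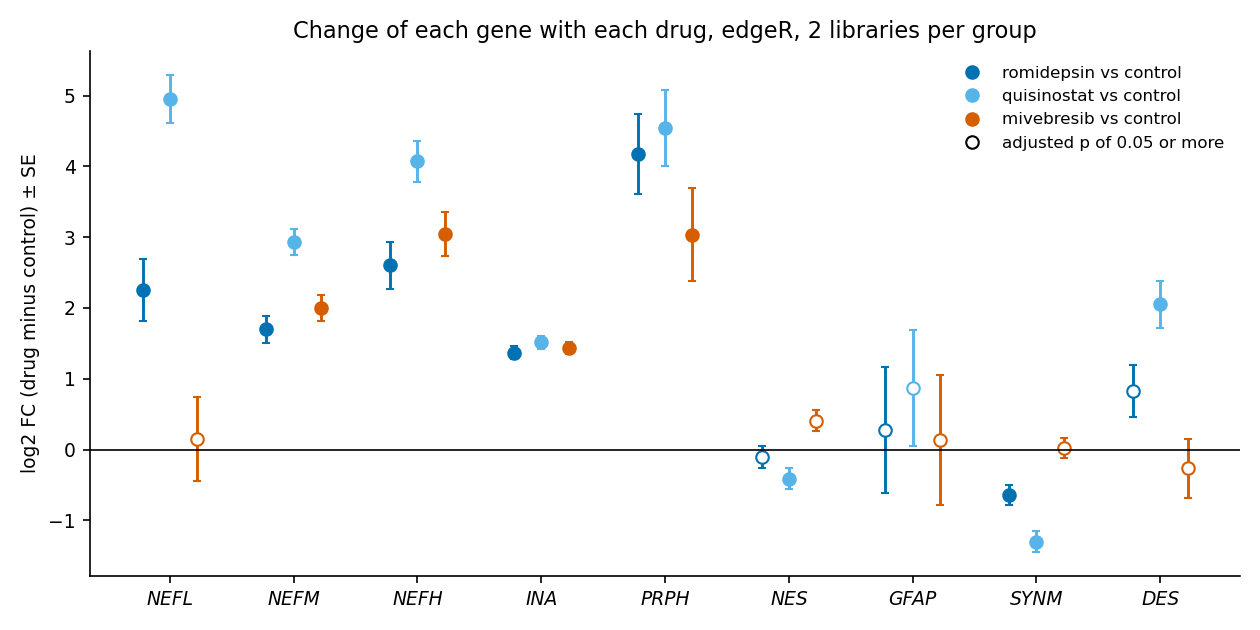
Log2 FC of each gene against the control (vertical axis) with its standard error, from edgeR with 2 libraries per group. Filled points passed an adjusted p of 0.05 and open points did not. NEFM, NEFH, INA and PRPH are filled for all 3 drugs, NEFL for romidepsin and quisinostat, and SYNM lies below 0 for the same drugs.

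Against the control, 5 of the 9 genes were higher with romidepsin at an adjusted p below 0.05, beside 15.1% of all genes tested, and 1 was lower, beside 15.4%. With quisinostat 6 were higher, beside 28.0%, and 2 lower, beside 25.0%. With mivebresib 4 were higher, beside 22.1%, and 0 were lower, beside 24.0%. The count of lower genes was also 0 at an unadjusted p below 0.05, with DESeq2 and with limma-voom. Past a log2 FC of 1.5 as well, the counts of higher genes were 4 with romidepsin, 6 with quisinostat and 3 with mivebresib, where 3.76%, 11.2% and 3.96% of all genes tested were called. The median log2 FC of the 9 was 1.37, 2.05 and 0.41 in that order, and that of all genes tested -0.01, -0.00 and 0.01. The 3 comparisons share the control libraries and are not independent of each other.

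The calls over all genes changed with the scaling. With romidepsin 2275 genes were higher and 2328 lower, but 2849 and 1646 with upper-quartile factors and 2755 and 1684 with library size alone. With quisinostat 4222 were higher and 3772 lower, but 5029 and 2636 or 5612 and 2125 under the same scalings, where the median log2 FC over the genes tested was 0.13 and 0.20. The 5 neuronal filament genes kept their calls against the control under both scalings, as did SYNM, while NES no longer passed with quisinostat and passed as higher with mivebresib (edgeR, adjusted p = 0.0346 and 0.0367).

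The HDAC inhibitors were given at the same molar dose and time, though the paper found romidepsin the more potent on viability of this line. Quisinostat raised the neurofilament chains further than romidepsin. The log2 difference was 2.69 ± 0.26 for NEFL (edgeR, adjusted p = 0.000247), 1.23 ± 0.15 for NEFM (edgeR, adjusted p = 0.000645) and 1.47 ± 0.22 for NEFH (edgeR, adjusted p = 0.00149). These libraries did not overlap for any of the 3 chains, at 0.877 ± 0.221 against 5.70 ± 0.493 CPM (SD, n = 2) for NEFL. DES was also higher with quisinostat, by 1.23 ± 0.30 (edgeR, adjusted p = 0.0148), and SYNM was lower, by -0.65 ± 0.14 (edgeR, adjusted p = 0.00917). PRPH differed by 0.37, with a 95% interval from -0.33 to 1.07, and NES by -0.31, from -0.65 to 0.04. In all, 4 of the 9 were higher with quisinostat, beside 20.8% of all genes tested, and 1 was lower, beside 14.3%. Over all genes 3139 were higher and 2161 lower, but 4280 and 1276 with library size alone. The DES call was lost without any of these 4 libraries (edgeR, adjusted p = 0.0706 to 0.0981), and the SYNM call without romidepsin 1 (edgeR, adjusted p = 0.0635) or quisinostat 1 (edgeR, adjusted p = 0.0662).

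Mivebresib, given at a different dose, differed from both HDAC inhibitors in several members, and most in NEFL. NEFL was lower with mivebresib than with romidepsin by -2.11 ± 0.43 (edgeR, adjusted p = 0.00395) and than with quisinostat by -4.81 ± 0.34 (edgeR, adjusted p = 1.05e-05). NEFM and NEFH with mivebresib lay between the HDAC inhibitors: the log2 difference from romidepsin was 0.30, with a 95% interval from -0.06 to 0.67, and 0.44, from -0.08 to 0.97. From quisinostat it was -0.93 ± 0.15 for NEFM (edgeR, adjusted p = 0.000836) and -1.02 ± 0.21 for NEFH (edgeR, adjusted p = 0.00312). SYNM and NES differed in the other direction. SYNM was higher with mivebresib than with romidepsin by 0.67 ± 0.14 (edgeR, adjusted p = 0.0052) and than with quisinostat by 1.32 ± 0.15 (edgeR, adjusted p = 0.00011), and NES by 0.51 ± 0.15 (edgeR, adjusted p = 0.022) and 0.82 ± 0.15 (edgeR, adjusted p = 0.00185).

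PRPH and DES were also lower with mivebresib than with romidepsin, by -1.14 ± 0.37 (edgeR, adjusted p = 0.0319) and -1.09 ± 0.38 (edgeR, adjusted p = 0.0428). Against quisinostat the differences were -1.51 ± 0.35 for PRPH (edgeR, adjusted p = 0.00613) and -2.31 ± 0.34 for DES (edgeR, adjusted p = 0.000564). Against romidepsin, 2 of the 9 genes were higher with mivebresib, beside 23.5% of all genes tested, and 3 lower, beside 25.0%. Against quisinostat 2 were higher, beside 26.0%, and 5 lower, beside 31.4%. Over all genes 3926 were higher than with quisinostat and 4741 lower, but 2547 and 5918 with library size alone. The calls of NES, PRPH and DES against romidepsin were each lost without any 1 of these 4 libraries, with adjusted p from edgeR up to 0.106, 0.174 and 0.182, and those of PRPH and DES also without either quisinostat library and with DESeq2 (adjusted p = 0.173 and 0.078). The PRPH call against quisinostat was lost without quisinostat 2 (edgeR, adjusted p = 0.0587) and with DESeq2 (adjusted p = 0.0525).

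Per kilobase of the longest annotated transcript, INA made up nearly all the neuronal filament RNA. Summed over NEFL, NEFM, NEFH, INA and PRPH, the level was 15.1 ± 0.528 CPM per kb (SD, n = 2) in the control, 39.8 ± 0.636 with romidepsin, 47.1 ± 0.279 with quisinostat and 41.5 ± 3.35 with mivebresib. INA was 97.2% of this sum in the control, 95.4% with romidepsin, 89.0% with quisinostat and 95.3% with mivebresib. With quisinostat NEFM made up 4.66%, NEFL 2.96%, NEFH 2.75% and PRPH 0.613% of it. Each neurofilament chain stayed far below INA in every group, with 2.20 CPM per kb for NEFM against 42.0 for INA with quisinostat.

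Set beside vimentin (VIM), the filament protein of mesenchymal cells and the main one of these cells, all the members together were minor. VIM was 90.0% of the summed CPM per kb of VIM and the 9 genes in the control, 89.0% with romidepsin, 85.4% with quisinostat and 86.4% with mivebresib, with 1479, 1407, 894 and 1491 CPM per kb. NES came next, at 7.70%, 7.48%, 9.13% and 9.78%. INA passed SYNM in rank with every drug: it was 0.894% against 1.39% for SYNM in the control and 4.01% against 0.891% with quisinostat. VIM itself fell with quisinostat by a log2 FC of -0.73 ± 0.12 (edgeR, adjusted p = 0.00107).

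**Figure D3:**
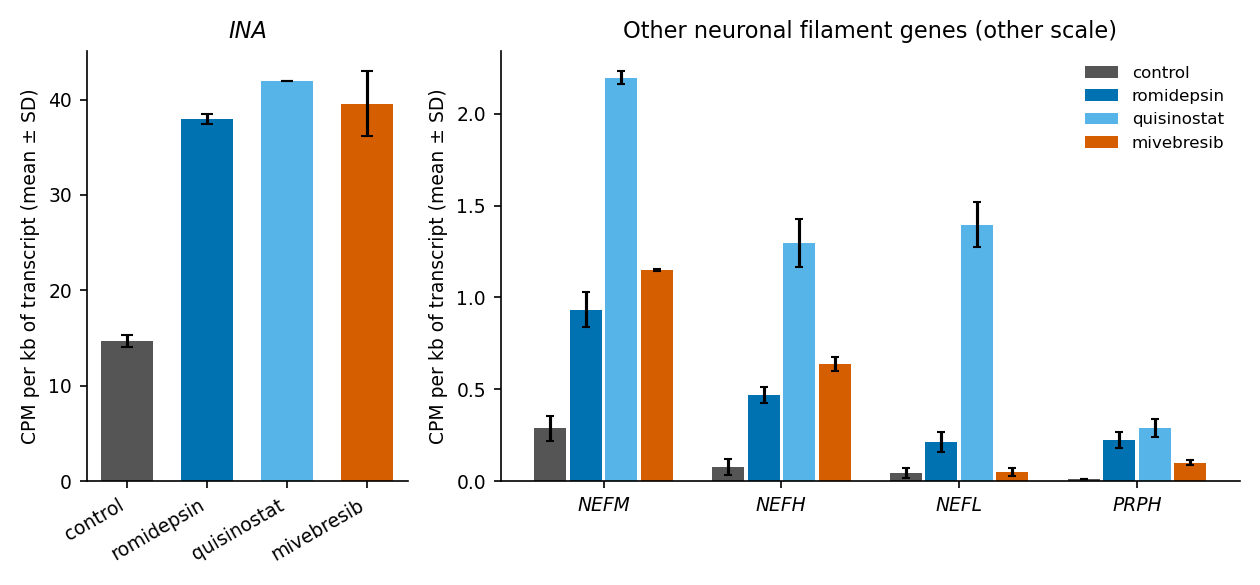
Level of the neuronal filament genes in CPM per kb of transcript (vertical axes from 0, on different scales for INA and the others), as the mean and SD of the 2 libraries of each group. INA stood at 14.7 in the control and 38.0 to 42.0 with the drugs, while NEFM, the next, reached 2.20 with quisinostat.

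Across the 8 libraries, the genes most like each member in log2 CPM were sought among the 5589 other tested genes (5590 for GFAP) whose group means span at least 1. These correlations describe 4 groups of 2 libraries, the same for every gene, and they carry no test. The nearest genes to NEFL were EVI5L, CORO2A and SCG2, at r of 0.997, 0.996 and 0.993, SCG2 encoding a granin of secretory vesicles. For NEFM they were ARFGEF3, HPSE and NEFH, and for NEFH they were NEFM, VWA5B2 and HPSE, at r of 0.994 to 0.996, with 0.995 between NEFM and NEFH. For INA they were HIP1R, HLF and MLLT3 (0.991, 0.987 and 0.986), and for PRPH they were PPM1E, LRRC8B and the Notch ligand DLL1 (0.993, 0.993 and 0.992). SYNM lay nearest to SMC1A, CDCA2 and CLSPN (0.994, 0.985 and 0.983), which act in chromosome cohesion, mitosis and the replication checkpoint. DES lay nearest to CAMKMT, HAPLN2 and PLPPR3, and GFAP, at few counts, to nothing above 0.923. Among the members, SYNM ran against DES (r = -0.98) and NEFL (r = -0.94).

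Few other intermediate filament genes rose with romidepsin or mivebresib. Of 25 listed, 18 were tested: with romidepsin 0 were higher and 5 lower, with quisinostat 4 were higher and 6 lower, and with mivebresib 1 was higher and 6 lower. Over all genes tested the shares were 15.1% and 15.4% with romidepsin, 28.0% and 25.0% with quisinostat and 22.1% and 24.0% with mivebresib, and the quisinostat counts lay near them. The 0 held at an unadjusted p below 0.05, with DESeq2 and with limma-voom, and without control 1 the quisinostat count of higher genes was 7. Their median log2 FC was -0.08, 0.12 and -0.89. The lamin genes LMNB1 and LMNB2, which encode filaments of the nuclear envelope, fell with all 3 drugs, LMNB1 by -1.52, -1.32 and -0.81 with romidepsin, quisinostat and mivebresib (edgeR, adjusted p = 5.92e-05, 9.17e-06 and 0.000135). LMNB2 fell by -0.62, -0.88 and -0.90, and LMNA fell with quisinostat by -0.76. Keratins of epithelia diverged between the drugs: KRT80 and KRT23 fell with mivebresib by -2.90 and -3.58, while KRT23 rose with quisinostat by 1.46. KRT18 rose with quisinostat by 1.18 and with mivebresib by 1.14, and its usual partner KRT8 rose with quisinostat by 1.41, a call lost without quisinostat 1 (edgeR, adjusted p = 0.0914). KRT8 and KRT18 overlap on opposite strands, as do the close paralogs KRT81 (-3.25 with mivebresib) and KRT86 (2.21 with quisinostat), so their counts are uncertain.

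Genes of proteins that transport, anchor or modify filaments held rises and falls. Of 24 listed, 23 were tested, 8 rising and 2 falling with romidepsin, and 8 rising and 7 falling with quisinostat as with mivebresib. Of all genes tested, 15.1% rose and 15.4% fell with romidepsin, 28.0% and 25.0% with quisinostat, and 22.1% and 24.0% with mivebresib, so the quisinostat counts and the falls with mivebresib were near the background. Their median log2 FC was 0.05, -0.13 and -0.03. Without romidepsin 1 or romidepsin 2 the count of higher genes with romidepsin was 5, and without mivebresib 1 or mivebresib 2 that with mivebresib was 4. The count of lower genes with romidepsin was 5 without control 2 and 1 without any of the romidepsin or quisinostat libraries. KIF5C and KIF5A encode kinesins that carry neurofilaments down the axon. KIF5C had 61 and 86 counts in the control, 1462 and 1320 with romidepsin, 5801 and 6256 with quisinostat, and 982 and 1034 with mivebresib, a rise of 4.17 ± 0.15, 6.17 ± 0.16 and 3.79 ± 0.15 on the log2 scale (edgeR, adjusted p = 1.33e-05, 6.64e-07 and 1.74e-06). KIF5A went from 3 and 2 counts to 25 and 37, 63 and 67, and 16 and 9, and its rise with mivebresib was lost without mivebresib 1 (log2 FC 1.80, edgeR, adjusted p = 0.0741). KIF5B, the ubiquitous family member, fell with quisinostat by -0.51.

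PADI2, an enzyme that citrullinates vimentin and GFAP, rose by 1.45 and 2.65 with the HDAC inhibitors and fell by -0.88 with mivebresib. EPPK1 and PPL, which encode filament-binding plakins, rose with all 3 drugs, EPPK1 most with mivebresib (3.63) and PPL most with quisinostat (1.81). PPL overlaps SEC14L5 on the opposite strand, which had 17 to 84 counts. The EPPK1 rise with romidepsin, of 0.89, was lost without control 1 (0.66), romidepsin 1 (0.77) or romidepsin 2 (0.99), and in the fit of only these 4 libraries (0.91). AURKB, a mitotic kinase that phosphorylates vimentin, fell by -0.88, -1.51 and -0.70.

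Many other genes of the axonal cytoskeleton also rose. Of 15 listed, 12 were tested: with romidepsin 7 were higher and 1 lower, with quisinostat 10 were higher and with mivebresib 8, and 0 were lower with these (also at an unadjusted p below 0.05, with DESeq2 and with limma-voom). The share of all genes tested that was higher was 15.1%, 28.0% and 22.1% with romidepsin, quisinostat and mivebresib. The share that was lower was 15.4%, 25.0% and 24.0% in that order. The list's median log2 FC was 0.85, 2.17 and 0.99. MAP2, a microtubule protein of dendrites, rose by 0.90, 2.05 and 2.35 with romidepsin, quisinostat and mivebresib, and MAPT, the axonal protein tau, by 1.27, 2.63 and 1.19. DPYSL3, a growth cone protein, rose by 1.21, 3.22 and 1.03. MAP1A, which binds microtubules in mature neurons, rose with quisinostat (2.29) and mivebresib (3.46), and TUBB3, a neuronal tubulin, rose with mivebresib (2.23) but fell with romidepsin (-0.75). ANK3 and SPTBN4, of the axon initial segment, rose with quisinostat by 3.36 and 3.46, as NEFL did, and SPTBN4 also with romidepsin by 2.54. STMN2, a tubulin-binding protein of growing axons, had 1 and 0 counts in the control, 7 and 9 with romidepsin, 37 and 17 with quisinostat, and 1 and 0 with mivebresib. Its ratio to the control was 47.7 (95% counting interval 8.20 to 1917) with quisinostat and 15.3 (2.38 to 642) with romidepsin, the latter call being lost without control 2 (edgeR, adjusted p = 0.0955) or any romidepsin or mivebresib library (edgeR, adjusted p = 0.0549 to 0.133) and with DESeq2. The romidepsin count of higher genes was 4 without romidepsin 1.

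**Figure D4:**
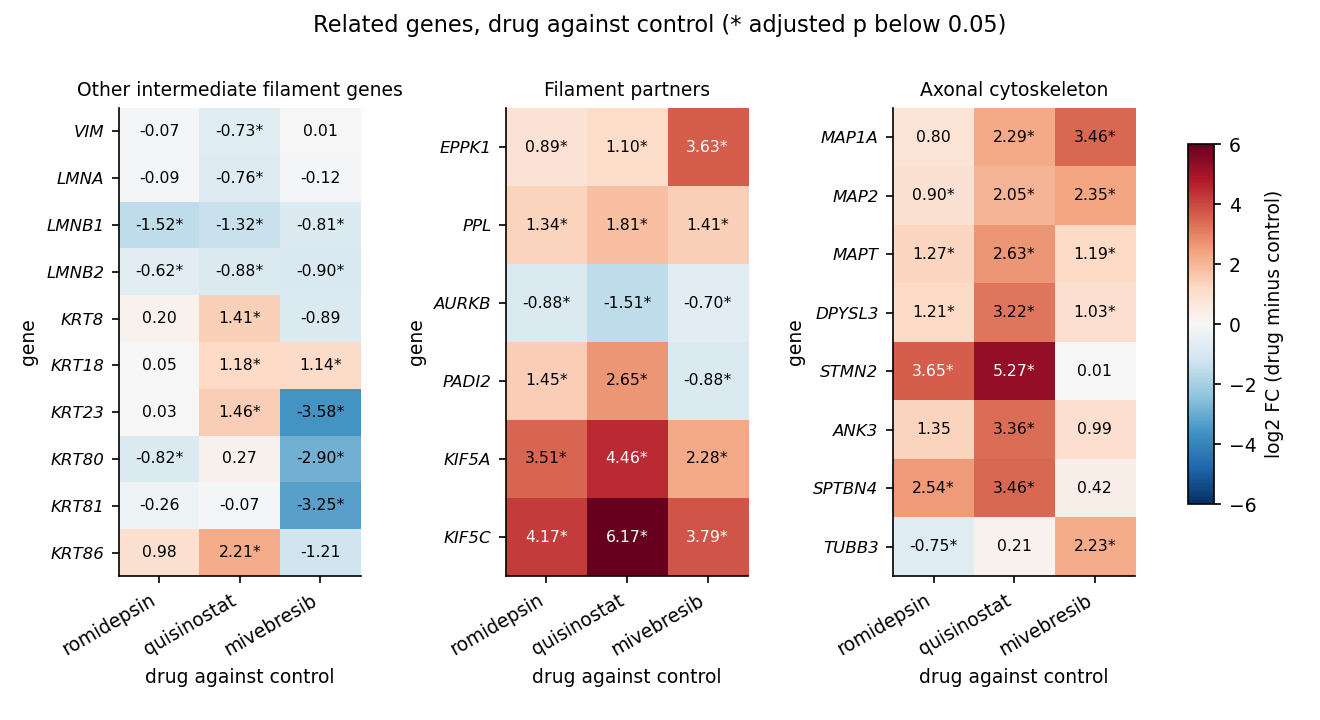
Log2 FC against the control (color and number in each cell) for the named genes of other intermediate filaments, filament partners and the axonal cytoskeleton (rows) with each drug (columns). An asterisk marks an adjusted p below 0.05. KIF5C is red in all 3 columns, LMNB1 and LMNB2 are blue in all 3, and PADI2 is red with romidepsin and quisinostat and blue with mivebresib. The value of STMN2 rests on 1 control count.

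General markers of neurons were higher with the HDAC inhibitors. Of 10 listed, 8 were tested and 5 were higher with romidepsin, beside 15.1% of all genes tested, and 7 with quisinostat, beside 28.0%. With mivebresib 2 were higher, a share near the 22.1% of all genes tested, and the median log2 FC was 0.12. Their summed level was 12.8 to 14.5 CPM in the control, 17.6 to 18.4 with romidepsin, 51.2 to 52.8 with quisinostat and 17.6 to 18.2 with mivebresib. GAD1 made up most of the control sum, at 11.9 and 10.6 CPM, and had 12.0 and 11.5 with quisinostat. SYN1, which encodes synapsin 1, had 7 and 5 counts in the control, 172 and 196 with quisinostat, and 62 and 56 with mivebresib. SNAP25 had 15 counts in each control library, 251 and 244 with quisinostat, and 10 and 6 with mivebresib. ELAVL4, which encodes a neuronal RNA-binding protein, had 0 to 2 counts. The 7 melanocyte markers summed to 4193 to 5452 CPM in the control and 4739 to 5027 with romidepsin. They summed to 3563 to 4108 with quisinostat and 3698 to 3776 with mivebresib, and TYRP1 and PMEL made up most of each sum. Of the 6 tested, mivebresib lowered 4, beside 24.0% of all genes tested, and quisinostat 3, beside 25.0%. Romidepsin lowered 1, a share near the 15.4% of all genes tested. MITF and SOX10, regulators of the melanocyte lineage, had 350 and 209 CPM in the control, 133 and 110 with quisinostat and 126 and 55 with mivebresib. Fibroblast markers, 7 in all, summed to 14.5 to 22.8, 20.5 to 24.9, 34.8 to 35.8 and 8.38 to 10.6 CPM in the same order, with LUM at 0 or 1 count. The part of these markers' cells in the filament results was not tested.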

How the data were processed

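Bulk RNA sequencing of MP38 cells (BAP1-mutant UM line, 4 groups of 2 libraries) was analysed from the counts per gene symbol that the authors deposited without normalization, made from paired-end reads of 150 bp with BioJupies. The submitters' processing notes name hg38. The aligner, annotation and use of strand in counting are not given in the sources used here. The authors' log CPM and quantile-normalized tables were not used.

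Counts of all 8 libraries entered 1 edgeR 4.0.16 model in R 4.3.3 (TMM, filterByExpr by group, robust quasi-likelihood test, Benjamini-Hochberg adjustment over 15085 genes). Genes were higher or lower at an adjusted p below 0.05, and past a log2 FC of 1.5 where stated. The square root of the common dispersion was 0.0938. Depth was 28483235 to 29359024 counts per library, so counting error is small for NES, INA and SYNM and large for members with few counts. No replicate pair agreed within sampling noise. Standard errors and 95% intervals come from this fit and are not adjusted. Levels per kb used the longest GENCODE 29 transcript, and coordinates, overlaps and neighbors came from GENCODE 29. Likeness used log2 CPM with a prior count of 2.

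Results were recomputed with DESeq2 1.42.0 and with limma-voom (limma 3.58.1). Further alternatives were library size alone, upper-quartile factors, a replicate block, no filter, a filter at a mean CPM of 1, fits of the 4 libraries compared, a log2 FC beyond 1, and each library left out. Members, gene lists and tests were chosen with earlier results of these data known. Named beside the 9 genes are VIM, LMNA, LMNB1, LMNB2, KRT8, KRT18, listed genes with a log2 FC beyond 1.5 against the control, and for each member the 3 most correlated genes, those of NES not being reported here. KIF5B, named as the family member of KIF5A and KIF5C, and single markers were added after their values were seen. The tests were first tried on simulated counts. Figures were drawn with matplotlib 3.10.9.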

Additional observations from a re-analysis of the deposited data

How the results depend on the processing

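The rises of NEFM, NEFH, INA and PRPH with each drug and of NEFL with romidepsin and quisinostat passed in every fit that tested them, as did the falls of SYNM with quisinostat. A mean CPM of at least 1 left PRPH and GFAP out. The replicate numbers of the labels did not pair the libraries by the rule used, a correlation of deviations above 0.1 in every pair of groups: it was -0.162 to -0.0704 in the 3 pairs with romidepsin and 0.0640 to 0.158 in the other 3, so whether the romidepsin numbers are crossed is not known. In the fit with the replicate block, 1 member was lower with mivebresib than with romidepsin in place of 3, PRPH and DES no longer passing, and 3305 genes were higher with mivebresib against the control in place of 3331. Crossing the romidepsin numbers, an alternative added after seeing the data, gave 3006 higher and 3534 lower genes with romidepsin.

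The count of members lower with romidepsin was 0 in the fit of its 4 libraries and 0 to 2 without a library. Lower with quisinostat it was 1 with upper-quartile factors, library size alone, a mean CPM of at least 1 or 4 libraries, and 1 to 2 without a library. Lower with quisinostat than with romidepsin it was 2 with 4 libraries and 0 to 2 without a library. With mivebresib against romidepsin, 1 member was lower with DESeq2, 1 to 3 were lower without a library, and 1 to 2 higher. With the coding length of GENCODE in place of the transcript, added after seeing the data, INA was 96.5%, 91.0% and 96.8% of the neuronal filament sum with romidepsin, quisinostat and mivebresib. The planned coding length from RefSeq proteins was not run.

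Values that turned direction were all of comparisons that did not pass. Without a library, the log2 FC against the control ran from -0.30 to 0.15 for NES and from -0.42 to 1.70 for GFAP with romidepsin. With mivebresib it ran from -0.35 to 0.88 for NEFL, -2.31 to 1.56 for GFAP (-0.20 with limma-voom), -0.19 to 0.26 for SYNM and -0.74 to 0.47 for DES. Between mivebresib and romidepsin it ran from -0.032 to 0.15 for INA and -2.58 to 0.70 for GFAP, and between mivebresib and quisinostat from -0.17 to 0.0070 for INA and -3.17 to 0.12 for GFAP. The cause was not tested. Depth limits GFAP, NEFL, PRPH and DES in the control, with 1 to 24 counts per library.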
